A study of Mus musculus with 15 samples.

Results

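The canonical Notch pathway was followed through 9 genes, the 4 receptors *Notch1*, *Notch2*, *Notch3* and *Notch4*, the 4 ligands *Dll1*, *Dll4*, *Jag1* and *Jag2*, and *Rbpj*, which encodes the DNA-binding protein that all 4 receptors act through. They were taken by name from the 53465 genes of the deposited table, and all 9 passed a filter on the mean over the libraries (5 normalized counts or more) that left 25549 genes for testing. The libraries were made from 3 populations of cells sorted from B16-F0 tumors (a mouse melanoma cell line) grown for 15 days in CAG-GFP mice: endovascular progenitor (EVP), transit amplifying (TA) and definitive differentiated (D) cells, with 5 libraries each. The mice of the study were of both sexes and between 8 and 14 weeks of age, and no treatment or further allele is described for any group. All 3 populations were gated as GFP+, lineage negative and CD34+, with EVP as CD31lo VEGFR2lo, TA as CD31int VEGFR2lo and D as CD31hi VEGFR2hi. The CAG promoter drives GFP in cells of every lineage, so the GFP gate could set host cells apart from injected tumor cells and did not mark endothelium. Melanoma transcripts were nonetheless present in every library, as given below. The sources used here do not say whether libraries came from separate animals or from pooled ones, and p-values therefore measure the spread between these samples, which may be partly technical.

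Notch receptors are single-pass proteins that are cut when a Delta or Jagged ligand on a neighboring cell pulls on them. The released intracellular domain enters the nucleus, binds RBPJ and turns a repressor complex into an activating one. In vessels the pathway is known for sorting tip from stalk cells during sprouting, for arterial identity, and for the contact between endothelium and mural cells, the pericytes and smooth muscle cells around it.

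The sorted populations differed in markers of several cell types, and the part of these differences in the values below was not tested. The summed normalized counts of 8 pan-endothelial markers ranged from 1675 to 3338 in EVP, from 5198 to 47752 in TA and from 66123 to 104731 in D, and 7 of the 8 were called higher in D than in EVP. *Cdh5*, the endothelial cadherin, averaged 72.3 normalized counts in EVP and 9818 in D, and *Erg* was at 0 in EVP replicate 3. The sum of 8 fibroblast markers ran the other way, from 808270 to 1453110 in EVP and from 1145 to 4173 in D, and all 8 were called higher in EVP. The EVP libraries thus carried the endothelial label of their gate with low levels of most endothelial transcripts and high levels of fibroblast ones. The paper bases an endothelial origin also on tracing in other mice. There, most lineage negative CD34+ tumor cells carried a fluorescent label switched on by *Cdh5*-driven Cre. The cells of these libraries were not traced in that way. *Tek* was the endothelial marker not called, with a mean of 1578 in EVP and 2379 in D (limma adjusted p = 0.322). The next highest of that list in EVP, *Esam*, averaged 377. *Cd34*, a gene of the gate, averaged 18262 in EVP and 27039 in D and was not called either (limma adjusted p = 0.222). In such bulk libraries, fewer cells of a type and less RNA per cell cannot be told apart. Reads on genes ranged from 5394356 to 26513073. The 3 libraries numbered 1 stood apart in the predicted gene *Gm10800*, with 8.50% to 10.6% of reads against at most 0.701% elsewhere. The share of olfactory genes with a read was 75.9% to 96.2% in these libraries. It was 13.6% to 65.1% in the libraries numbered 2 and 3, and at most 4.55% in those numbered 4 and 5. Leaving out only the libraries numbered 1 does not remove that difference, and its part in the members' values was not tested. A limit of detection of 3 reads equalled 1.81 to 10.5 normalized counts and covers counting error only. *Jag2* in EVP replicate 1, with 2 reads, was the only member value under it.

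Between EVP and D, 8 of the 9 genes were called different (limma on log2(normalized count + 1), adjusted p under 0.05), where 19.0% of all tested genes were called. *Notch1*, *Notch4*, *Dll1*, *Dll4* and *Jag2* were higher in D, the direction of 7.46% of all genes, and *Notch2*, *Notch3* and *Rbpj* were higher in EVP, the direction of 11.6%. Only *Jag1* was not called. Between EVP and TA, 5 of the 9 were called against 3.50% of all genes, and all 5 were higher in TA, the direction of 1.94%, with none higher in EVP, the direction of 1.56%: *Notch1*, *Notch4*, *Dll1*, *Dll4* and *Jag2*. Between TA and D, 5 of the 9 were called against 12.5% of all genes. *Notch1*, *Notch4* and *Dll1* were higher in D, the direction of 4.31%, and *Notch2* and *Notch3* were higher in TA, the direction of 8.21%. The libraries of the populations compared did not overlap at all for 7 of the 9 genes between EVP and D (17.7% of all genes), 1 between EVP and TA (4.29%) and 4 between TA and D (9.25%). The 3 comparisons share libraries, so a gene's calls in them do not stand as separate evidence. Without the 3 libraries numbered 1, the counts of members called were 8, 2 and 8, against 5024, 522 and 4397 of 19494 genes. The calls between EVP and TA were then *Dll1* and *Dll4*. The shares over all genes include genes with low counts. With a minimum mean of 20, 8, 5 and 7 members were called, against 4783, 1087 and 3444 of 16661 genes. The median log2 fold change over all tested genes was 0.46 between EVP and D, 0.09 between EVP and TA and 0.24 between TA and D, each as the first population minus the second. Without EVP replicate 1 these medians were 0.055, -0.07 and 0.17, and after quantile normalization -0.05, 0.01 and -0.10.

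**Figure D1:**
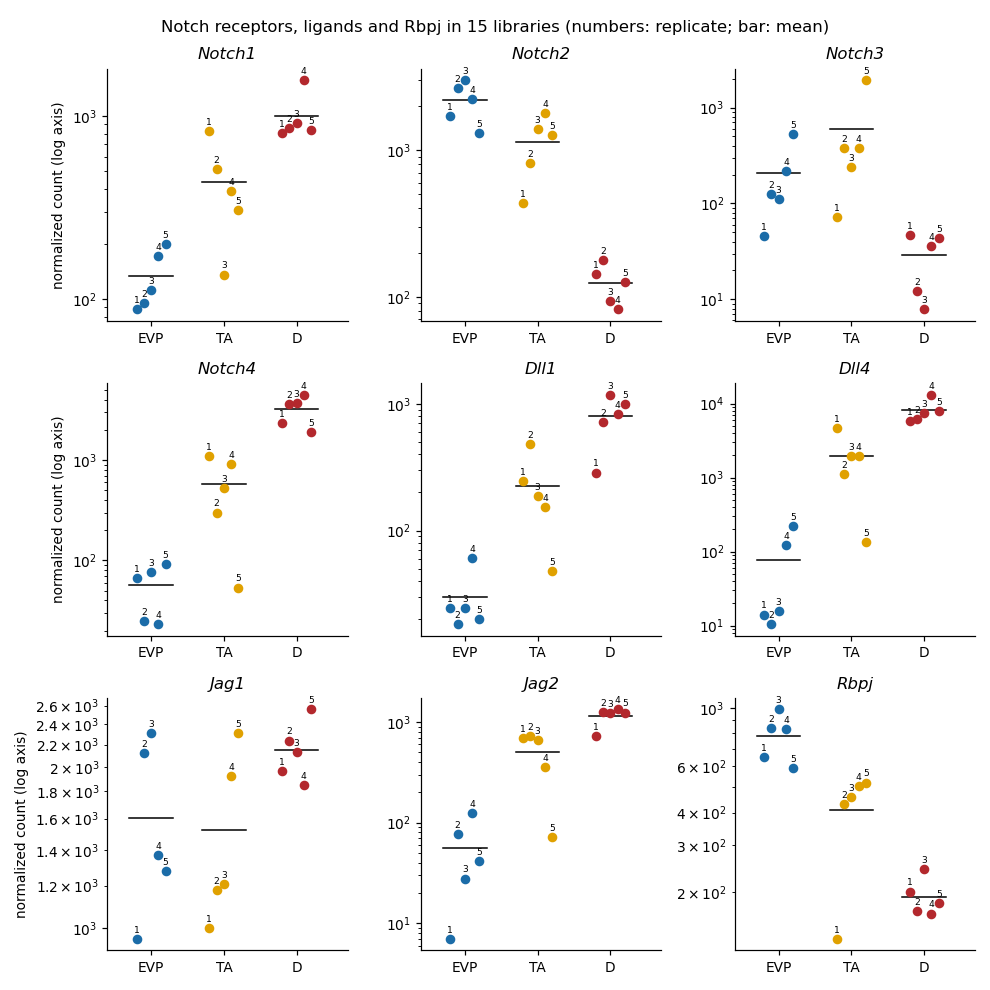
Normalized counts of the 9 genes (log axis) in the 5 libraries of EVP, TA and D, with the replicate number at each point and a bar at the mean. *Notch4*, *Dll4*, *Dll1* and *Jag2* have their lowest means in EVP and their highest in D, *Notch2* and *Rbpj* the reverse, *Jag1* stays within 955 to 2561, and *Notch3* has its highest point, 1939, in TA replicate 5.

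Stretches from the 250 bases upstream of the start sites are shown for the receptor and the ligand with the widest difference toward D, *Notch4* and *Dll4*, for the receptor with the widest difference toward EVP, *Notch2*, and for *Rbpj*, which also binds DNA itself. They are taken from RefSeq (GRCm38.p6) and trimmed to the run free of annotated exons, written 5′ to 3′ in lower case, with matches to the motifs searched in capitals. The *Rbpj* stretch precedes a start site inside the annotated gene and is intronic there. Trimming ends it 132 exonic bases before that start site. The *Notch4* and *Notch2* stretches end 27 and 11 exonic bases before theirs.
Notch4 promoter, chr17:34564045-34564267, plus strand: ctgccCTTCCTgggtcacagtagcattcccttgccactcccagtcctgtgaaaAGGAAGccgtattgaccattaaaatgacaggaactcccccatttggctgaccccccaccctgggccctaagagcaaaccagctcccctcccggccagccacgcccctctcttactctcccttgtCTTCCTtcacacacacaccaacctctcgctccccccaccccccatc
Dll4 promoter, chr2:119325565-119325783, plus strand: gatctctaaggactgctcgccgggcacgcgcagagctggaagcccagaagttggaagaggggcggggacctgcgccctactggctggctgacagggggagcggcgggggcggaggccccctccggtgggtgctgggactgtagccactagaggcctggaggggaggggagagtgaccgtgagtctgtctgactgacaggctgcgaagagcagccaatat
Notch2 promoter, chr3:98013288-98013526, plus strand: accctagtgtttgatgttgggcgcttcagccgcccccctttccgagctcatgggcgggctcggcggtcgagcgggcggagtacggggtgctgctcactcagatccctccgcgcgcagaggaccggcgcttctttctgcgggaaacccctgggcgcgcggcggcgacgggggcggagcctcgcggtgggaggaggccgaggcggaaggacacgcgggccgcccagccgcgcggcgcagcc
Rbpj promoter, chr5:53590096-53590213, plus strand: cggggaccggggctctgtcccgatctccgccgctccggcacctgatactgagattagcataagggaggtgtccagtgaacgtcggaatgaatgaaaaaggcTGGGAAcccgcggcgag
The motifs searched on both strands were TGGGAA, the core bound by RBPJ, ACAAT for SOX factors, AGGAAG for ETS factors and TGACTCA for AP-1. The *Notch4* run holds AGGAAG or its reverse complement 3 times, and the *Rbpj* run holds TGGGAA, while none of the 4 motifs occurs in the printed runs of *Dll4* and *Notch2*. Over windows from 250 bases before to 50 bases after the start site, TGGGAA was found for 1 of the 9 genes, *Rbpj*, against 25.6% of all 32851 promoters. AGGAAG was found for 2 of the 9 against 35.4%, ACAAT for 3 against 31.0% and TGACTCA for 1 against 5.20%. Of the 9 genes, 5 had none of the 4, and the share of all promoters with none was not computed. The members were counted by gene, with more than 1 start site for *Dll1* and *Rbpj*, and the background by promoter. A match is a description of letters and was not tested as a binding site.

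*Notch4*, a receptor best known from endothelium, showed the widest difference toward D among the receptors. The gene lies on chromosome 17 (chr17:34564268-34588503 in GRCm38, plus strand, 31 merged exon blocks). In D replicates 1 to 5 its normalized counts were 2329.8, 3592, 3666, 4491 and 1899, in TA 1101, 299.8, 525, 909.7 and 53.6, and in EVP 66.7, 24.8, 76.1, 23.2 and 92.7. The D libraries lay above all TA and EVP libraries, and 4 of the 5 TA libraries lay above all EVP libraries, with TA replicate 5 among the EVP values. Means were 3196 ± 1059 (SD, n = 5) in D, 578 ± 429.9 in TA and 56.7 ± 31.3 in EVP, a 56.4-fold difference between D and EVP. The log2 fold change was -5.94 for EVP against D (SE 0.65, limma adjusted p = 2.4e-06), -2.98 for TA against D (adjusted p = 0.00455) and -2.96 for EVP against TA (adjusted p = 0.0165). Without EVP replicate 2 the adjusted p between EVP and TA was 0.0567, and over 26 alternatives of libraries and settings it ran from 1.2e-06 to 0.0690.

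*Notch1*, the receptor of arterial and stalk cell programs, followed the same order with smaller steps. It is a gene of chromosome 2 (chr2:26457903-26516663, minus strand). Its normalized counts were 807, 862, 909, 1569 and 835 in D, 822, 515, 136, 387 and 306 in TA and 87.8, 95.4, 112, 173 and 201 in EVP. D and EVP did not overlap, TA replicate 1 reached into the D range, and TA replicate 3 lay within the EVP range. D averaged 996 ± 322, TA 433 ± 257 and EVP 134 ± 50.1 (SD, n = 5). EVP differed from D by -2.92 on the log2 scale (SE 0.39, limma adjusted p = 2.5e-05), 7.45-fold in the means. The differences of -1.54 between EVP and TA (adjusted p = 0.0380) and of -1.38 between TA and D (adjusted p = 0.0266) passed the threshold more narrowly. The first was lost in 8 of the 15 fits that each left out 1 library, with values from -1.25 to -1.65 in those fits, and the second without TA replicate 3 (adjusted p = 0.0530), TA replicate 5 (0.0599) or D replicate 4 (0.0854). Over the 26 alternatives the adjusted p ran from 0.00109 to 0.148 for the first and from 0.00512 to 0.176 for the second.

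*Notch2* was the receptor that moved most strongly the other way. Its gene lies on chromosome 3 (chr3:98013527-98150361, plus strand), and the receptor is known from mesenchymal and smooth muscle cells as well as lymphocytes. EVP libraries held 1703, 2638, 2996, 2233 and 1303 normalized counts, TA libraries 436, 818, 1389.6, 1781 and 1259.8, and D libraries 143, 179, 93.8, 81.9 and 125. All EVP and all TA libraries lay above every D library, whereas EVP and TA overlapped. The means were 2175 ± 684 in EVP, 1137 ± 521 in TA and 124 ± 38.9 in D (SD, n = 5). EVP exceeded D by 4.11 on the log2 scale (SE 0.35, limma adjusted p = 1.5e-07), 17.5-fold in the means, and TA exceeded D by 3.08 (adjusted p = 1.1e-05), 9.13-fold. The difference of 1.03 between EVP and TA was not called (adjusted p = 0.128, 95% interval 0.29 to 1.76).

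*Notch3*, the receptor of pericytes and arterial smooth muscle, had its highest mean in TA and, within each population, the widest spread of the receptors relative to the mean. Its SD was 126% of the mean in TA, 93.7% in EVP and 61.7% in D. It lies on chromosome 17 (chr17:32120820-32166880, minus strand). Normalized counts were 72.4, 375, 239, 379 and 1939 in TA, 45.6, 124, 111, 216 and 534 in EVP and 46.7, 12.2, 7.82, 36.1 and 43.5 in D. Every TA library lay above every D library, while EVP replicate 1 fell just under D replicate 1, and replicate 5 was the highest library in both TA and EVP. The means were 601 ± 758 in TA, 206 ± 193 in EVP and 29.3 ± 18.0 in D (SD, n = 5). TA exceeded D by 3.80 on the log2 scale (SE 0.78, limma adjusted p = 0.00302) and EVP exceeded D by 2.60 (adjusted p = 0.0243). EVP and TA differed by -1.20 (adjusted p = 0.537, 95% interval -2.84 to 0.44). The call between EVP and D was lost without EVP replicate 4 (adjusted p = 0.0579), EVP replicate 5 (0.0743), D replicate 2 (0.0650) or D replicate 3 (0.0711), and after quantile normalization, which put its log2 fold change at 1.12 (adjusted p = 0.627, the highest of a range from 0.00229). Quantile normalization also ended the call between TA and D (2.93, adjusted p = 0.122, the highest of its alternatives).

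*Dll4*, the ligand of tip and arterial endothelial cells, showed the widest difference of all 9 genes. It lies on chromosome 2 (chr2:119325784-119335962, plus strand). D libraries held 5840.3, 6141, 7381, 13209.8 and 7883 normalized counts, TA libraries 4623, 1109, 1978, 1952 and 136, and EVP libraries 14.04, 10.5, 15.5, 123 and 219.9. All D libraries lay above all TA libraries, and TA replicate 5 was the only TA library to fall into the EVP range. Means were 8091 ± 2984 in D, 1959 ± 1669 in TA and 76.6 ± 93.1 in EVP (SD, n = 5), a 105.6-fold difference between D and EVP and a 25.6-fold one between TA and EVP. The log2 fold change of EVP against D was -7.67 (SE 0.87, limma adjusted p = 3.8e-06), and the change against TA was -5.01 (adjusted p = 0.00477). Between TA and D the libraries did not overlap, yet the change of -2.66 missed the threshold (adjusted p = 0.0539). It passed without TA replicate 1 (-3.14, adjusted p = 0.0226) or EVP replicate 5 (-2.66, adjusted p = 0.0322), within a range of 0.0226 to 0.161 over the alternatives. It also passed without the 3 libraries numbered 1 (0.0294), in a fit of TA and D alone (0.0271), with a pseudocount of 8 (0.0397) and with a minimum mean of 20 (0.0422).

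*Dll1* and *Jag2* took the same order at lower counts. *Dll1*, a ligand of arterial endothelium and of many embryonic tissues, lies on chromosome 17 (chr17:15367354-15376872, minus strand). It held 287, 718, 1180.3, 828 and 999 normalized counts in D, 245, 482, 188, 154 and 47.9 in TA and 24.6, 18.3, 24.5, 60.7 and 20.1 in EVP. D lay above EVP throughout, D replicate 1 lay below TA replicate 2, and TA replicate 5 lay below EVP replicate 4. The log2 fold change was -4.71 for EVP against D (SE 0.53, limma adjusted p = 3.7e-06), -2.67 for EVP against TA (adjusted p = 0.0103) and -2.04 for TA against D (adjusted p = 0.0157, or 0.0964 after quantile normalization). Of the exonic bases of *Dll1*, 20.6% are shared with *A930024N18Rik* on the opposite strand. Since the counting is not stated to use strand, reads of the pair on those bases cannot be told apart. Smaller shares overlap genes on the opposite strand in *Notch1* (7.50% and 2.91%), *Notch3* (6.03%) and *Dll4* (5.56%). In *Notch2*, 5.02% overlap a gene on the same strand.

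*Jag2* (chr12:112907819-112929776, minus strand) encodes a Jagged ligand. Its normalized counts were 722, 1257, 1223, 1340.2 and 1243 in D, 698, 723, 665, 357 and 71.6 in TA and 7.02, 77.1, 27.8, 125 and 41.5 in EVP. D lay above EVP throughout, 4 of the 5 TA libraries lay above all EVP libraries, and TA replicate 2 just exceeded D replicate 1. EVP differed by -4.84 from D (SE 0.67, limma adjusted p = 3.5e-05) and by -3.29 from TA (adjusted p = 0.0115). The change of -1.55 between TA and D was not called (adjusted p = 0.166), but without the libraries numbered 1 it was -1.92 with an adjusted p of 0.0470, the lowest of a range up to 0.375. Between EVP and TA the value without those libraries was -2.51 and was not called (adjusted p = 0.0570, from 7.0e-06 upward in the other alternatives). It was called in all 15 fits that each left out 1 library.

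*Jag1* was the only gene of the 9 without a call in any comparison. This Jagged ligand, which competes with DLL4 at Notch receptors during sprouting, lies on chromosome 2 (chr2:137081456-137116644, minus strand). EVP held 955, 2122, 2309, 1367 and 1279 normalized counts, TA 999.7, 1178, 1209.9, 1918 and 2309.7, and D 1965, 2238, 2132, 1852 and 2561. The ranges of the 3 populations overlapped, although D held no value as low as the lowest ones of EVP and TA. The means were 1606 ± 580.3 in EVP, 1523 ± 563 in TA and 2149.6 ± 274 in D (SD, n = 5). EVP against D gave -0.49 on the log2 scale (SE 0.26, limma adjusted p = 0.248), with a 95% interval from -1.04 to 0.06 that still holds a difference of 2-fold. EVP against TA gave 0.07 (adjusted p = 0.980, interval -0.47 to 0.62) and TA against D gave -0.56 (adjusted p = 0.198).

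*Rbpj*, the nuclear effector, was highest in EVP and lowest in D. The gene lies on chromosome 5 (chr5:53466152-53657362, plus strand). Its normalized counts were 649.6, 837, 987, 832 and 591 in EVP, 133, 433, 459, 505 and 520.0 in TA and 200.4, 169, 243, 165 and 181 in D. Every EVP library lay above every TA and D library, and 4 of the 5 TA libraries lay above all D libraries, with TA replicate 1 below them. The means were 779 ± 159.6 in EVP, 409.7 ± 159 in TA and 192 ± 31.8 in D (SD, n = 5). EVP exceeded D by 2.01 on the log2 scale (SE 0.32, limma adjusted p = 1.6e-04), 4.07-fold in the means. The differences of 1.05 between EVP and TA (adjusted p = 0.0871) and of 0.96 between TA and D (adjusted p = 0.0618) were not called. The first missed the threshold although the libraries did not overlap, a separation seen for 4.29% of all genes, and the second passed without TA replicate 1 (1.33, adjusted p = 4.0e-04, the lowest of a range up to 0.304). It also passed without the 3 libraries numbered 1 (1.35, adjusted p = 7.1e-04), with a minimum mean of 20 (0.96, adjusted p = 0.0432), and on whole reads with edgeR (1.08, adjusted p = 0.0371) and DESeq2 (adjusted p = 0.00351), while the first passed with DESeq2 alone of the alternatives (0.93, adjusted p = 0.0272).

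**Figure D2:**
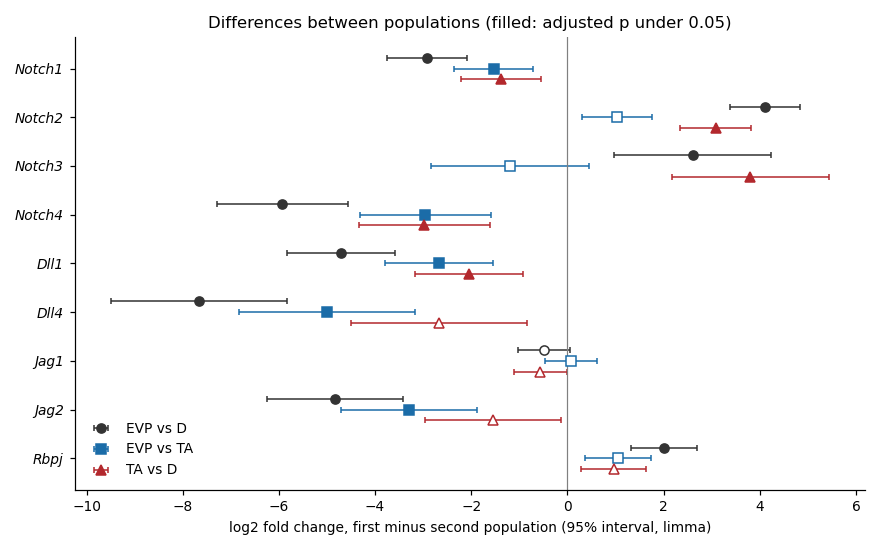
Log2 fold changes of the 9 genes in the 3 comparisons, as the first population minus the second, with 95% intervals from limma and filled symbols where the adjusted p was under 0.05. The intervals of *Notch1*, *Notch4*, *Dll1*, *Dll4* and *Jag2* lie left of 0 in all 3 comparisons, those of *Notch2* and *Rbpj* lie right of it, and *Jag1* stays within -1.11 to 0.62.

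The plot of fold changes places TA between EVP and D for most of the genes. On the mean log2 scale, with EVP at 0 and D at 1, TA stood at 0.50 for *Notch4*, 0.53 for *Notch1*, 0.52 for *Rbpj*, 0.57 for *Dll1*, 0.65 for *Dll4* and 0.68 for *Jag2*. *Notch2* in TA stood nearer to EVP, at 0.25. *Notch3*, at -0.46, lay outside the range set by EVP and D, since its mean was highest in TA. *Jag1* also lay outside that range, at -0.15, with TA and EVP close together. These positions are descriptions and were not tested.

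To compare genes with each other, normalized counts were divided by exon length in kilobases, and each receptor or ligand was expressed as a percentage of the 4 summed. Receptor transcripts summed to 244 ± 50.6 normalized counts per kb in EVP, 282 ± 81.8 in TA and 482 ± 146 in D (SD, n = 5). *Notch2* made up 81.9 ± 14.3% of this sum in EVP, 37.6 ± 14.96% in TA and 2.66 ± 1.198% in D. *Notch4* made up 3.08 ± 1.96% in EVP, 27.3 ± 19.8% in TA and 81.6 ± 4.25% in D. The leading receptor per length thus differed between populations, *Notch2* in all 5 EVP libraries and *Notch4* in all 5 D libraries. In TA the leader varied by library, with *Notch4* first in replicate 1 at 56.0%, *Notch3* first in replicate 5 at 62.3% and *Notch2* first in the other 3. *Notch1* contributed 4.0% in EVP, 11.9% in TA and 14.9% in D.

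**Figure D3:**
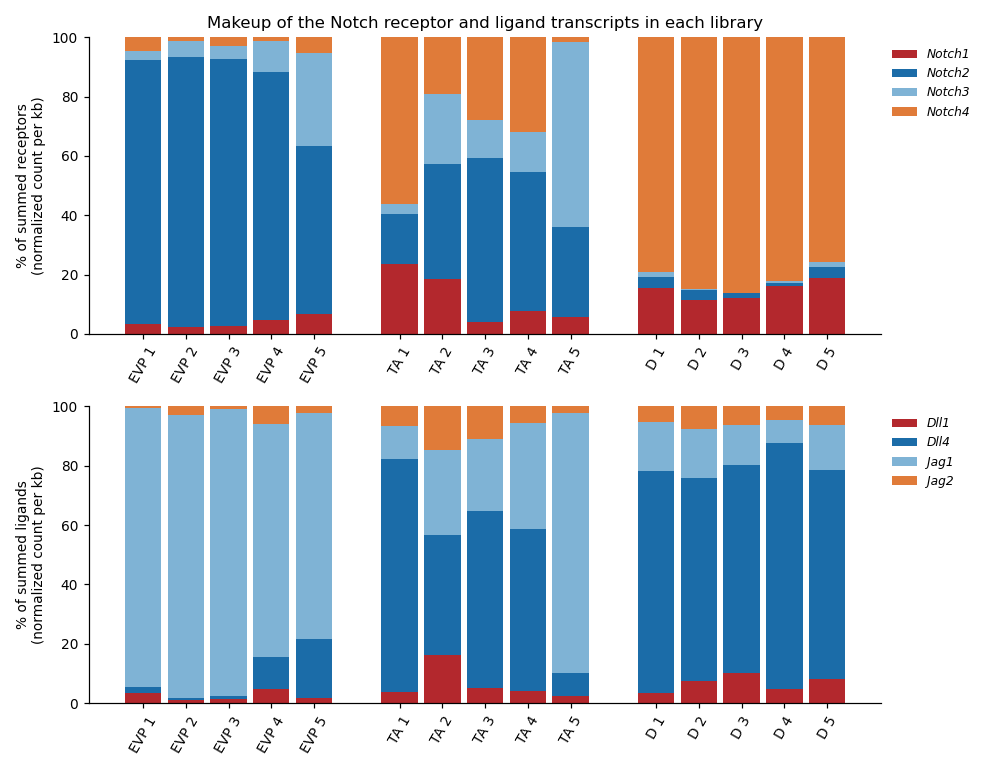
Share of each receptor (top) and each ligand (bottom) in the summed normalized counts per kb of its family, in percent, for each of the 15 libraries. *Notch2* fills 56.9% to 90.7% of the EVP bars and *Notch4* 75.7% to 86.1% of the D bars, while *Jag1* gives way to *Dll4* from EVP to D, with 87.4% for *Jag1* in TA replicate 5.

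Ligand transcripts summed to 311 ± 92.5 normalized counts per kb in EVP, 895 ± 398 in TA and 2826 ± 809 in D (SD, n = 5). *Jag1* made up 88.2 ± 9.84% of them in EVP and 13.9 ± 3.70% in D, although its own normalized counts were not called different. *Dll4* made up 6.87 ± 8.35% in EVP, 48.3 ± 26.4% in TA and 73.4 ± 5.85% in D. In TA, *Dll4* led in 4 of the 5 libraries, with 40.7% to 78.4%, and *Jag1* led in replicate 5 with 87.4%. *Dll1* and *Jag2* held mean shares between 2.47% and 8.02% in every population. These shares are relative, so a rise of *Dll4* lowers the share of *Jag1* without any change in *Jag1*.

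Markers of several cell types also differed between the libraries, and their part in the members' values was not tested. The pan-endothelial sum was highest among TA libraries in replicate 1 (47752) and lowest in replicate 5 (5198). These were also the TA libraries with the highest and the lowest normalized counts of *Notch4* (1101 and 53.6) and *Dll4* (4623 and 136). TA replicate 1, with the lowest fibroblast sum of TA at 187973, held the lowest TA values of *Notch2* (436) and *Rbpj* (133). Among the other TA libraries *Notch2* did not follow that sum: replicate 4, with the next lowest sum (231588), had the highest *Notch2* (1781), and replicate 2, with 510477, had 818. *Notch3* in turn was highest, within TA and within EVP, in the library with the most mural transcripts. The summed counts of 10 mural markers reached 145949 in TA replicate 5 and 28849 in EVP replicate 5, against ranges of 5472 to 37610 in the other TA and 5205 to 8954 in the other EVP libraries. In D they ranged from 5043 in replicate 1, which held the highest *Notch3* of D (46.7), to 10802 in replicate 4 (*Notch3* at 36.1). Of the 10 mural markers, 5 were called higher in TA than in D and none lower, and between EVP and D 3 were higher in EVP and 2 in D. *Higd1b* was at 0 in TA replicate 1, and *Cnn1* was at 0 in D replicates 2 and 3. The 6 melanoma markers summed to 69248 to 175671 in TA, 29702 to 67272 in EVP and 18157 to 47767 in D. Melanoma transcripts were thus present in every library despite the GFP+ gate, and their source was not tested. The leukocyte markers summed to 2984 to 21648 in TA, 961 to 7447 in EVP and 1139 to 2309 in D. The 6 keratinocyte markers ranged up to 67245 in TA, 6042 in EVP and 1815 in D. The highest sum belonged to TA replicate 2, the TA library with the highest *Dll1* (482) and *Jag2* (723) and their highest shares of ligand transcripts (16.1% and 14.7%), whose pan-endothelial sum of 12734 was next to the lowest of TA.

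**Figure D4:**
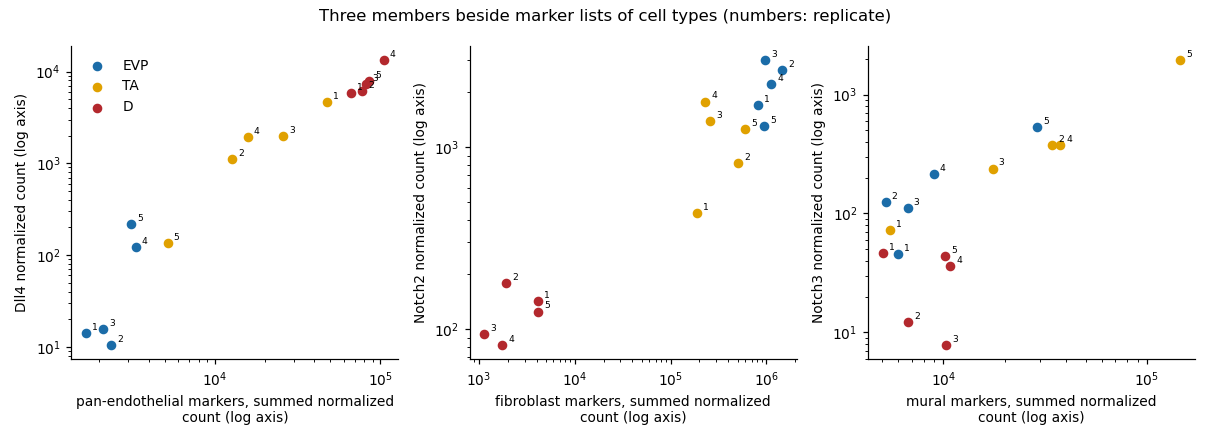
Normalized counts of *Dll4*, *Notch2* and *Notch3* against the summed normalized counts of pan-endothelial, fibroblast and mural markers (log axes), with each library as a point numbered by replicate. *Dll4* runs from 10.5 to 13209.8 along the endothelial sum, *Notch2* lies at 436 or more where the fibroblast sum is 187973 or more, and *Notch3* peaks in TA replicate 5 with the highest mural sum.

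The genes whose log2 values were most similar to each member over the 15 libraries were named among the 10748 genes that averaged 100 normalized counts or more. The points share 3 populations, so these correlations mostly carry the difference between populations and are given as a description. *Dll4* resembled *Hlx*, *Gimap4* and *Plvap*, which encodes the diaphragm protein of fenestrated endothelium (Pearson r = 0.993, 0.993 and 0.992). *Notch4* resembled *Stab1*, *Upp1* and *Bcl6b* (0.983, 0.982 and 0.981), and *Jag2* resembled *Fabp4*, *Galnt18* and *Tmem252* (0.976, 0.959 and 0.958). *Notch1* resembled *Prkd2*, *Tspan9* and *Hip1* (0.964, 0.962 and 0.959) and *Dll1* resembled *Eva1c*, *Lama5* and *Timeless* (0.975, 0.974 and 0.970).

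*Notch2* resembled *Ccdc80*, *Dennd2a* and *Tm7sf3* (r = 0.979, 0.971 and 0.970), and *Rbpj* resembled *Aifm2*, *Gmppa* and *Tspan3* (0.976, 0.956 and 0.943). *Notch3* resembled *Des*, the muscle intermediate filament desmin and one of the mural markers, *Cox4i2* and *Mgp* (0.973, 0.954 and 0.952). *Jag1* had the weakest best matches, *Psmd10*, *Wtap* and the pseudogene *Vdac3-ps1* (0.878, 0.877 and 0.870). Among the members themselves, *Notch4* and *Dll4* correlated at 0.926, *Notch2* and *Rbpj* at 0.901, *Notch1* and *Rbpj* at -0.905, and *Jag1* with any other member between -0.312 and 0.277.

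Of 56 other genes of the pathway, 53 were tested. Between EVP and D, 17 of the 53 were called against 19.0% of all genes, 12 of them higher in D (7.46% of all genes) and 5 higher in EVP (11.6%). Their median log2 fold change was -0.11, against 0.46 over all genes, and without EVP replicate 1 these medians were -0.15 and 0.055. Between EVP and TA, 4 were called against 3.50% of all genes, 3 of them higher in TA (1.94%) and 1 in EVP (1.56%), with a median of -0.14 against 0.09. Between TA and D, 14 were called against 12.5% of all genes, 8 of them higher in D (4.31%) and 6 in TA (8.21%), with a median of -0.06 against 0.24. The shares over all genes include genes with low counts. With a minimum mean of 20, 19, 5 and 15 of 51 pathway genes were called in the 3 comparisons, against 4783, 1087 and 3444 of 16661 genes. These counts and medians are descriptions of the list and were not tested.

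Among genes that act on the receptors, *Adam10*, the protease that makes the ligand-dependent cut, was 3.31-fold higher in D than in EVP (log2 fold change -1.73, limma adjusted p = 2.7e-05). Of the 10 cleavage genes, *Ncstn*, a gamma-secretase subunit, was also higher in D (-0.51, adjusted p = 0.0330). *Aph1c* and *Psen2*, further gamma-secretase subunits, were higher in TA than in D (1.83 and 0.74, adjusted p = 0.00397 and 0.0203). The endocytic adaptors that remove receptor from the membrane moved in opposite directions, *Numb* toward D (-1.33 for EVP against D, adjusted p = 2.9e-05) and *Numbl* toward EVP (3.72, adjusted p = 9.8e-06). The Deltex genes *Dtx4* (5.43, adjusted p = 2.4e-05) and *Dtx3* (1.40, adjusted p = 0.00330) were higher in EVP than in D.

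**Figure D5:**
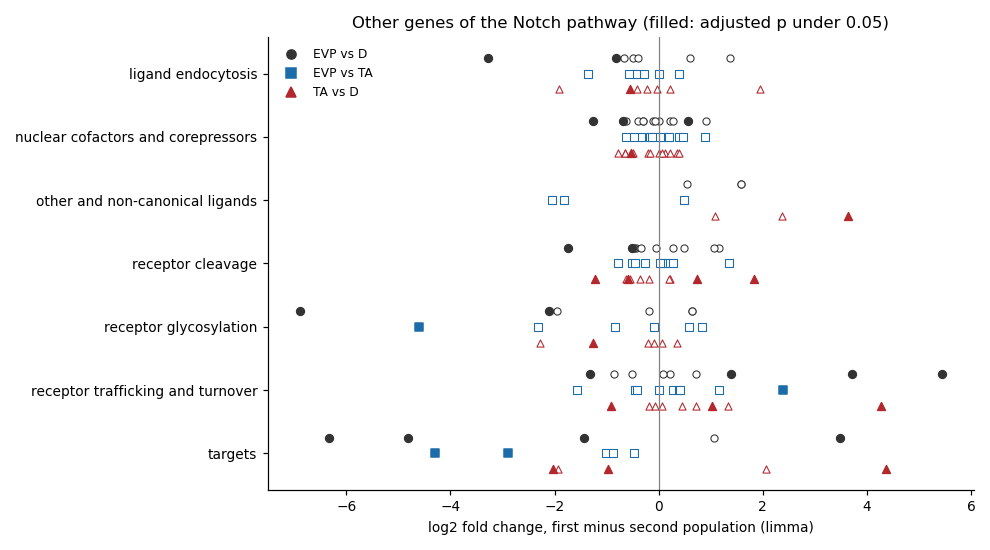
Log2 fold changes of 53 other Notch pathway genes by list and comparison, each point a gene, filled where the limma adjusted p was under 0.05. Most points lie near 0, and filled points farther out are *Mfng* at -6.89 and *Nrarp* at -6.32 toward D and *Dtx4* at 5.43 toward EVP.

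On the ligand side, *Neurl1b*, a ubiquitin ligase of ligand endocytosis, was higher in D than in EVP (-3.28, limma adjusted p = 0.00776), as was *Dnm2*, the dynamin of the same step (-0.83, adjusted p = 0.00174). *Dlk2*, a non-canonical ligand, was higher in TA than in D (3.63, adjusted p = 0.0134). Of the 13 nuclear cofactors tested, *Maml3* (-1.26, adjusted p = 0.0149) and *Hdac1* (-0.69, adjusted p = 0.00347) were higher in D than in EVP and *Kdm5a*, a histone demethylase found with RBPJ, was higher in EVP (0.56, adjusted p = 0.0248). The sugar transferases *Mfng* (-6.89, adjusted p = 8.3e-06) and *Eogt* (-2.11, adjusted p = 1.3e-04) were higher in D than in EVP. Of 5 target genes tested, 4 were called between EVP and D, against 19.0% of all genes. *Nrarp* (-6.32), *Hey1* (-4.82) and *Hes1* (-1.44) were higher in D than in EVP and *Heyl* (3.49) was higher in EVP, with adjusted p = 8.2e-07, 1.2e-04, 0.00101 and 0.0290.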

How the data were processed

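RNA of 15 libraries of sorted EVP, TA and D cells was amplified with a modified Smart-Seq2 protocol. Per the submitters' processing notes and the study's methods, reads were demultiplexed with bcl2fastq 2.17, aligned with STAR 2.5.3a to GRCm38 (mm10, Ensembl 91), counted per gene with HTSeq-count 0.6.1 and divided by size factors in DESeq2 1.10.1. The values deposited by the authors are thus a signal, counts per gene divided by 1 size factor per library, not corrected for length or for reads shared between overlapping genes. Whole reads were recovered for 100% of values (tolerance 0.001), and 6716 genes had no value above 0. Tables of the authors' own comparisons hold mean counts, log2 fold changes, test statistics and p-values and were not used.

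Samples were grouped by their titles. Log2(normalized count + 1) was fitted for the 25549 genes that averaged 5 or more with limma 3.58.1 in R 4.3.3, with 1 coefficient per population, a trend and two-sided tests, adjusted by Benjamini and Hochberg over all genes tested. Values after ± are SDs, and a fold divides 1 mean of normalized counts by another. Exon lengths and coordinates came from GENCODE M21 (GRCm38) and promoters from RefSeq (GRCm38.p6). Named were all 9 members, per pathway list up to 4 called genes with the largest fold change, and the 3 genes most correlated with each member. The members and lists were chosen with earlier results of these data known. The script was tested on simulated data with known changes. Alternatives were pseudocounts of 0.5 and 8, no minimum mean or 20, scaling to the same total, quantile normalization, a fit of each pair of populations alone, a block for the replicate number, edgeR 4.0.16 and DESeq2 1.42.0 on whole reads, and leaving out each library or the 3 numbered 1.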

Additional observations from a re-analysis of the deposited data

Results flagged for a closer look

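The 9 genes in 3 populations gave 27 groups of 5 libraries. In 6 of them the highest or lowest library stood farther from the others than Dixon's 95% criterion allows. For normally distributed values chance alone does this in about 1 in 20 groups. The criterion was applied to normalized counts and not to their log2 values, so that rate need not hold here. In D, replicate 4 was the high library for *Notch1* (1569 normalized counts) and for *Dll4* (13209.8), and replicate 1 was the low one for *Jag2* (722). In TA, replicate 5 was high for *Notch3* (1939) and replicate 1 was low for *Rbpj* (133). In EVP, replicate 4 was high for *Dll1* (60.7). D replicate 4 also had the highest pan-endothelial sum of D (104731), TA replicate 5 the highest mural sum (145949) and TA replicate 1 the highest pan-endothelial sum of TA (47752), and their part in these values was not tested.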

How the results depend on the processing

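Between EVP and D, 229 of 234 values over the 26 alternatives kept their direction and their side of the threshold, and the other 5 were lost calls of *Notch3*. Between EVP and TA 213, and between TA and D 214, of 234 did. Members called between EVP and TA numbered 3 in a fit of only those populations (661 of 27300 genes). They numbered 2 without the 3 libraries numbered 1 (522 of 19494 genes). Between TA and D they numbered 2 after quantile normalization (2117 of 25549 genes) and 8 without the libraries numbered 1 (4397 of 19494 genes). Pathway genes called between TA and D numbered 9 with no minimum mean (2595 of 46749 genes) and 7 after quantile normalization (2117 of 25549 genes). Between EVP and TA, DESeq2 called 1900 genes and limma 522 without the libraries numbered 1, against 893, and between TA and D limma called 2117 after quantile normalization, against 3199. With 1 library left out, 7 to 8, 3 to 5 and 4 to 7 members, 15 to 19, 3 to 6 and 7 to 16 pathway genes, and 4106 to 5150, 428 to 1209 and 2403 to 3581 genes were called in the comparisons of EVP with D, EVP with TA and TA with D. *Jag1* between EVP and TA turned to -0.11 with the same total in every library, and ranged from -0.075 to 0.24 with 1 library left out. Without division by length, the shares in D were 23.3% for *Notch1*, 72.8% for *Notch4*, 65.3% for *Dll4*, 18.5% for *Jag1* and 9.63% for *Jag2*. That shift of the shares follows from the calculation, since exon lengths differ. They are 14.2 kb for *Notch1* and 8.06 for *Notch4*, and 3.85 for *Dll4*, 5.83 for *Jag1* and 6.97 for *Jag2*. The cause of the other shifts was not tested.

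Of all calls, 2952 against 1907 were higher in EVP than in D, and 1920 against 1983 after quantile normalization. Between EVP and TA, 398 of 893 were higher in EVP, against 237 of 951 at the same total, 621 of 1166 with a pseudocount of 8 and 387 of 661 in a fit of only those populations. Libraries that share a replicate number did not pair throughout: the correlation of their deviations exceeded 0.1 in 4 of 5 numbers for EVP and D, 4 of 5 for EVP and TA and 3 of 5 for TA and D. For numbers 1, 4 and 5 it lay between 0.359 and 0.689, and each library correlated best with its own number in all 3 comparisons. With the replicate number as a block, 8, 5 and 6 members and 5710, 1262 and 4047 genes were called, and *Rbpj* between TA and D (0.96) was added with an adjusted p of 0.0470, within 4.0e-04 to 0.304 over its alternatives. The shallow libraries numbered 1 limit low values such as *Jag2* in EVP.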
